A study of Mus musculus with 10 samples.

Results

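The proteasome genes of the mouse kidney were followed from sham surgery to ischaemia-reperfusion injury. They were taken by name, as every gene whose symbol starts with Psma, Psmb, Psmc, Psmd, Psme, Psmf or Psmg followed by a number, and 4 pseudogenes so named were left out. This gave 50 of the 55359 genes in the table. One of them, Psmc3ip, a factor of meiotic recombination, matches by name and is no proteasome subunit, which leaves 49 proteasome genes. The tissue was whole kidney of male mice in 2 groups of 5 libraries. The sham group had sham surgery. The injury group (IRI) had 30 min of ischaemia and 24 h of reperfusion. The labels name no strain, age, genotype or diet, do not give the interval between sham surgery and sampling, and do not say that each library is a separate mouse. The p-values therefore reflect only how much these libraries vary, which may be technical.

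The proteasome degrades proteins that carry a ubiquitin chain. Its 20S core is a barrel of outer alpha rings, which gate the entrance, and inner beta rings, which hold the cutting sites of Psmb5, Psmb6 and Psmb7. The 19S cap binds ubiquitin chains, removes them, unfolds the substrate with a ring of ATPases and feeds it into the core. In immune cells and under interferon, Psmb8, Psmb9 and Psmb10 take the places of Psmb5, Psmb6 and Psmb7 and form the immunoproteasome, which favours peptides for MHC class I. PA28 and PA200 are alternative caps that need no ATP, and dedicated chaperones assemble core and cap. When proteasome capacity falls short, the transcription factor NRF1, the product of Nfe2l1, raises transcription of the subunits.

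Libraries held 13199234 to 18603272 counts in sham and 13147899 to 17307039 in IRI. The proteasome genes that were tested took 0.380% to 0.418% of the counts in sham and 0.485% to 0.585% in IRI. IRI replicate 1 stood apart in mitochondrial rRNA, which took 2.31% of its counts against 0.214% to 0.450% in the other IRI libraries and 0.230% to 0.267% in sham. Proximal tubule markers, the defining genes of the labelled tissue, summed to 3692 to 5002 units in sham and 224 to 1741 in IRI, and 12 of 12 were lower in IRI. Tubular injury markers summed to 506 to 579 in sham and 17510 to 26540 in IRI, and 11 of 11 were higher. Havcr1, Krt20 and Sox9 reached at most 0.800, 0.712 and 0.263 units in sham. They passed the filter on low values (at least 1 FPKM in 5 or more libraries) through IRI, which limits the weight of their calls. Of all tested genes, 34.5% were higher and 32.4% lower. Levels here and below are TMM-scaled FPKM, that is counts scaled by exonic length and by an effective library size that TMM factors (a trimmed mean of gene ratios) correct for composition. They are per base of annotated exonic length, so a comparison between genes depends on that annotation. That length was 899 bases for Psmb5 and 3660 for Psmb9. In bulk tissue, fewer cells of a type and less RNA per cell cannot be told apart.

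Promoter sequence is shown for 4 members, chosen because the results below turn on them. Psmd1 and Psmd11 rose most, Psmg1 fell most among members averaging 5 FPKM or more, and Psmb9 was the one immunoproteasome gene called lower. Each line gives the 250 bases before the annotated start, read 5′ to 3′ on the gene's strand, from RefSeq on GRCm38.p6, while gene coordinates elsewhere are those of the deposited table on GRCm39. Capitals mark every match, on either strand, to the motifs TGANNNNGC (core of the antioxidant response element read by NRF1 and NRF2), CCAAT (NF-Y), CCGGAAG (ETS factors), the interferon-stimulated response element core (GAAA and again GAAA, with 2 free bases between) and TTCNNNGAA (gamma-activated sequence).
Psmd1, chr1:86064369-86064618, plus strand: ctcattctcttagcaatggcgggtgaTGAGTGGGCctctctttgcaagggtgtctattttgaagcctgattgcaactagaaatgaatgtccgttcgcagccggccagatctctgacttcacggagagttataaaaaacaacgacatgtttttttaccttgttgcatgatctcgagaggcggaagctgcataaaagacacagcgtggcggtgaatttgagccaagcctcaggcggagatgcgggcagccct
Psmd11, chr11:80428365-80428614, plus strand: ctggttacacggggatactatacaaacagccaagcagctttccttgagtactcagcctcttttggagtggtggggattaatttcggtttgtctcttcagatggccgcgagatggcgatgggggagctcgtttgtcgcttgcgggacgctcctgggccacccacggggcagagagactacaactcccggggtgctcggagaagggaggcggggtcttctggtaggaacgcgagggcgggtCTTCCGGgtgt
Psmg1, chr16:95990961-95991210, minus strand: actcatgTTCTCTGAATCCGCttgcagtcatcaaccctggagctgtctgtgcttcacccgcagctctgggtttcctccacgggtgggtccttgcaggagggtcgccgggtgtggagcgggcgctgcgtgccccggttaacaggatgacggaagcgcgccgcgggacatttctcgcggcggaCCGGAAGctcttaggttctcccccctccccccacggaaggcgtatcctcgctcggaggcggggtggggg
Psmb9, chr17:34187331-34187580, minus strand: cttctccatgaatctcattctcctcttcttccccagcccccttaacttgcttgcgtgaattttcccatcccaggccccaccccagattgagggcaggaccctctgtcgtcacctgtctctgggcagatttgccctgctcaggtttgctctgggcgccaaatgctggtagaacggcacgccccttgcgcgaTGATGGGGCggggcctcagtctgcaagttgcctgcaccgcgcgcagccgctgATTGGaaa
Counting back from the start, Psmd1 held TGANNNNGC at bases 224 to 216 and Psmd11 held CCGGAAG on the other strand at bases 11 to 5. In Psmg1, TTCNNNGAA at bases 243 to 235 overlapped TGANNNNGC at 238 to 230 by 4 bases, and CCGGAAG lay at 69 to 63. Psmb9 held TGANNNNGC at 60 to 52 and CCAAT on the other strand at 8 to 4. Of the 50 members, 42 matched the promoter table, with 45 windows. The ETS motif CCGGAAG was in 31.1% of the members' windows (14 windows of 13 genes) and in 6.91% of all 32851 windows of the same length. TGANNNNGC was in 18 of the 45 windows and in 35.2% of all. The other shares were 33.3% against 33.8% for CCAAT, 6.67% against 2.98% for the interferon core and 4.44% against 7.02% for TTCNNNGAA. A longer antioxidant core (TGAC, 3 free bases, GCA), which lies within matches of TGANNNNGC and was searched later, was in 2.22% of members' windows (Psmd12 alone) and 2.47% of all. These matches describe letters in a window and show no binding.

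After injury the proteasome genes shifted modestly, upward for the cap and for part of the core and downward for PA200, Psmb9, Psmb7 and a pair of core assembly chaperones. Of the 48 members that passed the filter on low values, 21 were higher in IRI, where 34.5% of all 13324 tested genes were higher. Another 6 were lower, where 32.4% of all genes were, and 21 were not called, where 66.9% of all genes were called in either direction (edgeR's quasi-likelihood test, Benjamini-Hochberg adjusted p under 0.05 over all tested genes). A gene is said to rise or fall only when it was called. The median log2 change was 0.23 over these members and 0.05 over all tested genes. No member changed 2-fold or more, a size that 26.9% of all tested genes both reached and were called at. Groups did not overlap for 14 of the 48, against 52.1% of all tested genes. The members that did not pass were Psma8, the alpha subunit of the testis, with 16 counts over the 5 sham libraries and 5 over IRI, and Psmb11, the thymus subunit, with 3 and 12 counts.

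The split of calls depended on scaling. With library totals in place of TMM factors, the median of all tested genes moved from 0.05 to 0.30, and 66.8% of all calls were higher instead of 51.6%. Under those totals 39 members were higher and 1, Psmc3ip, was lower, against 47.4% and 23.6% of all tested genes (71.0% in either direction), and the members' median was 0.49. All 21 members called higher with TMM factors were called higher with library totals too. Of the falls, that of Psmb7 changed sign, and those of Psmb9, Psme4, Psmg1 and Psmg2 kept their sign without passing the threshold. Without IRI replicate 1, 21 members were higher and 5 lower, against 34.0% and 32.4% of all genes (66.4% in either direction). In all 19 fits run, 13 of the 21 rises kept their call (Psma5, Psma7, Psmb3, Psmc1, Psmd1, Psmd2, Psmd7, Psmd8, Psmd11, Psmd12, Psmd14, Psme1 and Psme2b), and of the 6 falls that of Psmc3ip alone did.

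**Figure D1:**
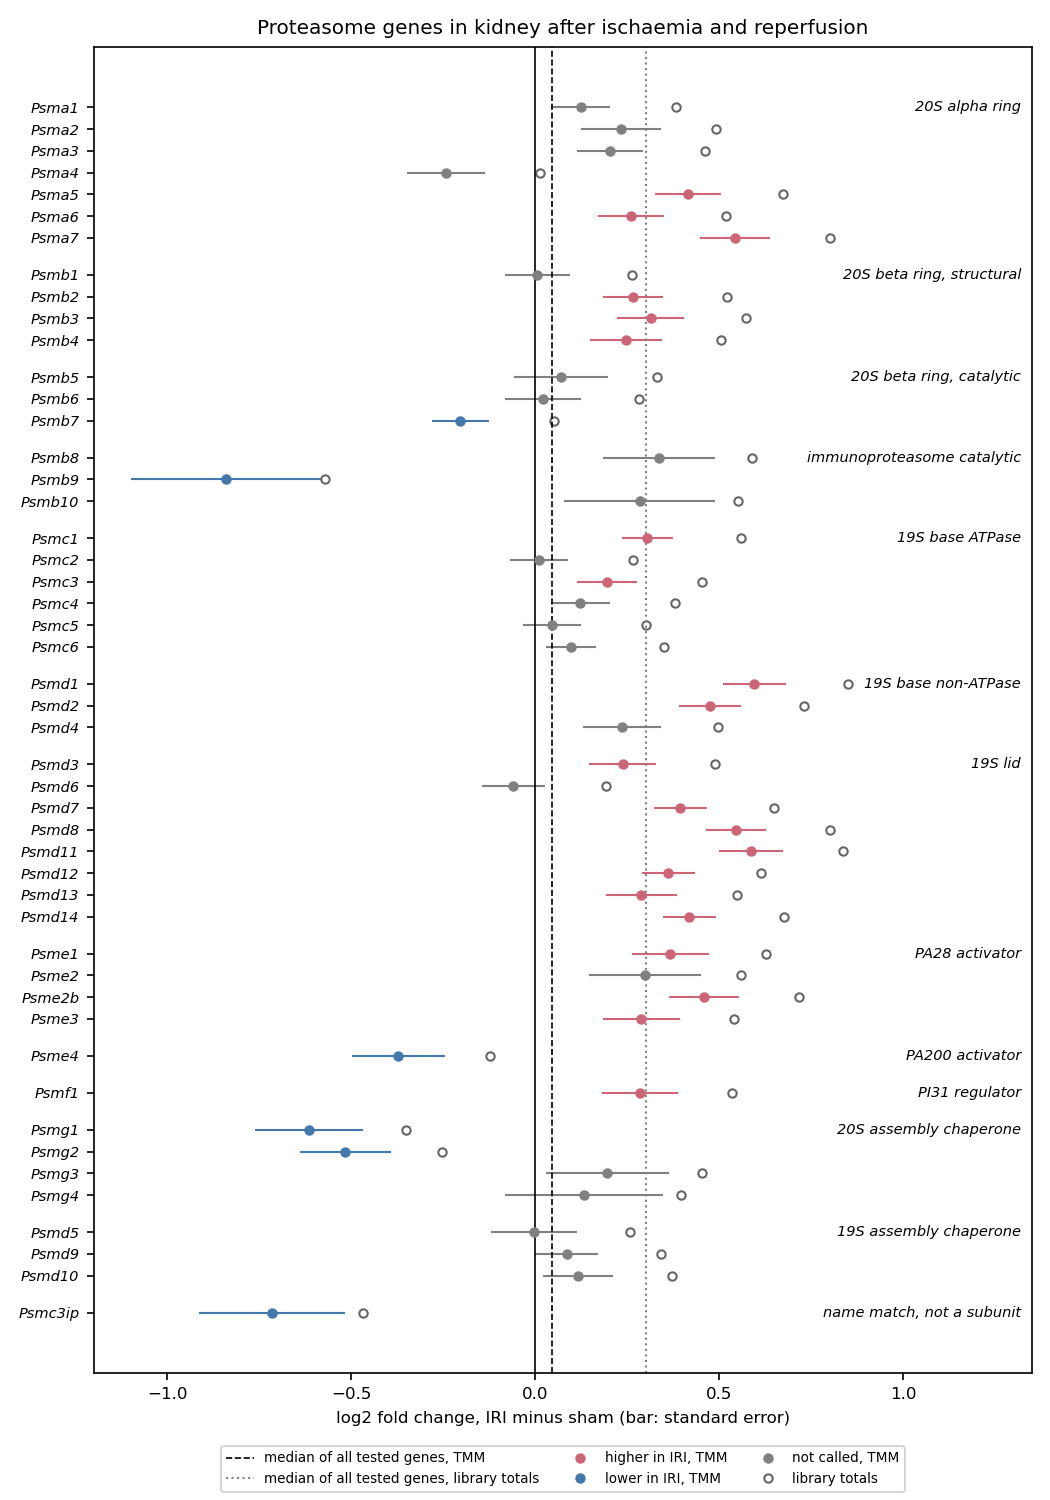
Log2 fold change of IRI over sham (x axis, TMM factors) with its standard error for each of the 48 tested members, grouped by role; red is higher, blue lower, grey not called, open circles are the values under library totals, and the dashed and dotted lines are the medians of all tested genes under each scaling. The cap genes sit to the right of 0 except Psmd6, none reaches 1 in either direction, and the falls of Psmb7, Psmb9, Psme4, Psmg1 and Psmg2 lose their call under library totals, where Psmb7 changes sign.

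In the alpha ring, which forms the gate of the core, 3 of 7 genes rose, 0 fell and 4 were not called, with a median log2 change of 0.23. The rises were near the share of all tested genes (34.5% rose, 32.4% fell). Psma7 rose most, from 39.97 ± 4.31 to 58.2 ± 4.42 (SD, n = 5 each), a log2 change of 0.54 ± 0.10 (SE, edgeR adjusted p = 0.000334), and its groups did not overlap. Psma5 rose by 0.42 ± 0.09 (edgeR adjusted p = 0.00152), also without overlap, and Psma6 by 0.26 ± 0.09 (edgeR adjusted p = 0.0218) with overlap. Psma4 stood at -0.24 (edgeR adjusted p = 0.0586) with TMM factors and at 0.01 with library totals. Psma1, Psma2 and Psma3 lay between 0.12 and 0.23 and were not called. Psma4 became a call when sham replicate 3 or IRI replicate 3 was left out (-0.29 each), Psma2 without sham replicate 5 or IRI replicate 1 (0.27 to 0.32), and Psma3 without sham replicate 2 or IRI replicate 4 (0.25 each). Levels per exonic base were unequal within the ring. Psma6 was the highest in 9 of 10 libraries and Psma3 the lowest in 10, with 5.45 to 7.58 times between highest and lowest. This order depends on annotated length, 1234 bases for Psma6 and 3894 for Psma3. Over the sham libraries, counts were 7375 for Psma6, 13148 for Psma4 and 3747 for Psma3.

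Among the beta subunits with no cutting site, 3 of 4 rose, where 34.5% of all tested genes rose and 32.4% fell. Psmb3 rose by 0.31 ± 0.09 (edgeR adjusted p = 0.00904), Psmb2 by 0.27 ± 0.08 (edgeR adjusted p = 0.0127) and Psmb4 by 0.25 ± 0.10 (edgeR adjusted p = 0.0401). Their groups overlapped. The call of Psmb4 was lost without sham replicate 1, 2 or 3 or IRI replicate 2, 3 or 5 (0.19 to 0.26, edgeR adjusted p from 0.0522 to 0.0922). Psmb1 was not called, at 29.04 ± 2.11 and 29.2 ± 2.52, with a log2 change of 0.01 ± 0.09 (edgeR adjusted p = 0.96).

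The 3 constitutive catalytic genes gave 0 rises, 1 fall and 2 genes not called with TMM factors, and 2 rises and 0 falls with library totals. Among all tested genes 34.5% rose and 32.4% fell with TMM factors, and 47.4% and 23.6% with library totals. Psmb5, the chymotrypsin-like site, had the highest level of the constitutive beta genes in all 10 libraries. This order depends on exonic length: Psmb4 had 15672 counts over the sham libraries on 1951 bases, Psmb5 11233 on 899. Psmb5 lay at 164, 161, 145, 189 and 208 TMM-scaled FPKM in the 5 sham libraries, by replicate number, and 151, 189.8, 219.5, 187 and 163 in the 5 IRI libraries. These ranges overlapped over most of their length, and the log2 change was 0.07 ± 0.13 (edgeR adjusted p = 0.64), or 0.33 under library totals (edgeR adjusted p = 0.0442). Psmb6, the caspase-like site, lay at 75.8, 74.7, 65.2, 83.6 and 89.3 TMM-scaled FPKM in the 5 sham libraries, by replicate number, and 67.9, 82.8, 86.6, 81.02 and 76.1 in the 5 IRI libraries. The groups again overlapped, with a log2 change of 0.02 ± 0.10 (edgeR adjusted p = 0.861), or 0.28 under library totals (edgeR adjusted p = 0.0412). Psmb7, the trypsin-like site, lay at 33.4, 34.9, 31.1, 38.3 and 35.3 TMM-scaled FPKM in the 5 sham libraries, by replicate number, and 29.8, 30.7, 31.9, 28.9 and 28.8 in the 5 IRI libraries. In IRI, 4 libraries were below every sham library and replicate 3 was within the sham range, and the log2 change was -0.20 ± 0.08 (edgeR adjusted p = 0.0345). That fall became 0.05 under library totals (edgeR adjusted p = 0.58), and its call was lost without sham replicate 1, 2, 4 or 5 or IRI replicate 1, 4 or 5 (-0.20 to -0.15, edgeR adjusted p from 0.0533 to 0.129). Psmb7 shares 6571 bases of its span with Nek6 on the opposite strand, a gene at 1.78 units in sham and 4.52 in IRI. Strand use was not given in the sources used here, and without it reads of the pair cannot be separated.

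Over the 14 constitutive core genes, 6 rose, 1 fell and 7 were not called, where 34.5% of all tested genes rose and 32.4% fell. With library totals 12 of the 14 were higher and 0 lower, and 6 of the 7 alpha genes were higher. The shares of all tested genes were then 47.4% and 23.6%. Without IRI replicate 1, with TMM factors, 7 of the 14 were higher and 0 lower, against 34.0% and 32.4% of all tested genes.

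The immunoproteasome genes were scarce and did not move together. Psmb9 fell, and Psmb8 and Psmb10 were not called. Their mean levels in sham were 3.48 ± 0.622 for Psmb8, 1.61 ± 0.242 for Psmb9 and 8.05 ± 1.09 for Psmb10, against 173 ± 25.2 for Psmb5. Over the sham libraries their counts were 849, 423 and 993, against 11233 for Psmb5. Exonic lengths were 3381, 3660 and 1705 bases, against 899.

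Psmb9 (chr17:34400961-34406738, minus strand), the caspase-site replacement that cuts after hydrophobic residues, lay at 1.84, 1.31, 1.41, 1.68 and 1.82 TMM-scaled FPKM in the 5 sham libraries, by replicate number, and 0.408, 0.893, 1.12, 0.791 and 1.27 in the 5 IRI libraries. The highest IRI library was below the lowest sham library, so the groups did not overlap. The log2 change was -0.84 ± 0.26 (edgeR adjusted p = 0.0128), from 24 to 101 counts per library. Deposited FPKM of Psmb9 was 1.16 to 1.67 in sham and 0.40 to 1.43 in IRI. It thus passed the filter (at least 1 FPKM in 5 or more libraries) through sham, the group where it is high, which limits the weight of this call. Under library totals it was -0.57 (edgeR adjusted p = 0.0825), and without IRI replicate 1, the lowest, it was -0.66 (edgeR adjusted p = 0.0114).

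Psmb8 (chr17:34416695-34420428, plus strand), the replacement of Psmb5, lay at 3.41, 3.08, 2.86, 3.58 and 4.47 TMM-scaled FPKM in the 5 sham libraries, by replicate number, and 4.69, 3.29, 4.89, 4.30 and 4.78 in the 5 IRI libraries. The groups overlapped, with a log2 change of 0.34 ± 0.15 (edgeR adjusted p = 0.0671). It became a call without sham replicate 5 or IRI replicate 2 (0.42 to 0.46) and under library totals (0.59, edgeR adjusted p = 0.00414).

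Psmb10 (chr8:106662367-106665076, minus strand), the replacement of Psmb7, lay at 6.55, 7.77, 7.78, 8.69 and 9.45 TMM-scaled FPKM in the 5 sham libraries, by replicate number, and 5.18, 9.71, 12.7, 9.91 and 11.4 in the 5 IRI libraries. IRI replicate 1 was the lowest of all 10 libraries and the other 4 IRI libraries were above every sham library. The log2 change was 0.28 ± 0.21 (edgeR adjusted p = 0.239), and 0.44 without IRI replicate 1 (edgeR adjusted p = 0.0119). Under library totals it was 0.55 (edgeR adjusted p = 0.0415), which is a call.

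**Figure D2:**
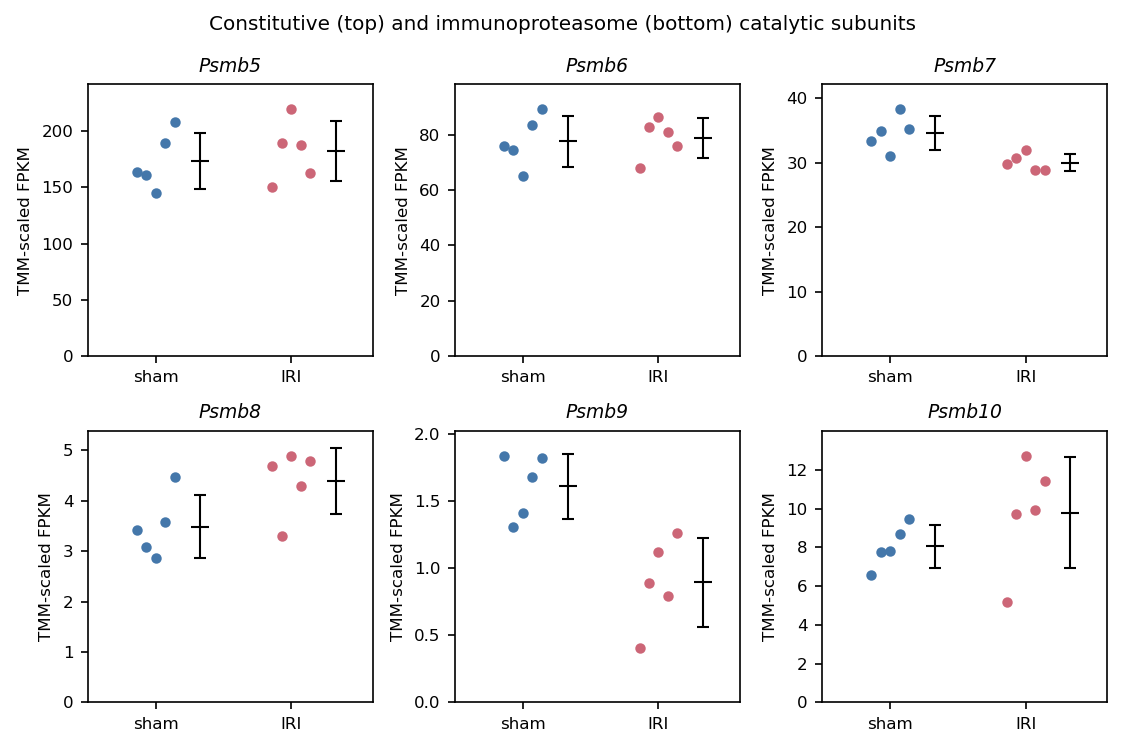
TMM-scaled FPKM (y axis, from 0, one scale per panel) of the 3 constitutive catalytic genes and their 3 immunoproteasome counterparts in each sham and IRI library (points), with the mean and SD of each group beside them. Only the Psmb9 panel has no overlap between the groups, and IRI replicate 1 is the lowest library for Psmb9 and Psmb10.

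Each immunoproteasome gene was also set against the gene whose place it takes, within each library, as a percentage that does not depend on how libraries are scaled. Psmb9 was 2.42%, 1.75%, 2.17%, 2.01% and 2.04% of Psmb6 in the sham libraries, by replicate number, and 0.596%, 1.08%, 1.30%, 0.974% and 1.66% in IRI. All 5 IRI ratios were below all 5 sham ratios. On log2(FPKM + 1) the difference was -0.61, from -4.86 ± 0.12 to -5.46 ± 0.19 (SD, n = 5 each; exact two-sided permutation test p = 0.00794, adjusted 0.0238 over 3 ratios). That p is the smallest that the test can give with these groups. With no pseudocount the difference was -0.96, with the same p.

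Psmb10 was 19.6%, 22.2%, 25.0%, 22.7% and 26.8% of Psmb7 in sham and 17.4%, 31.7%, 39.8%, 34.3% and 39.6% in IRI. In IRI, 4 libraries were above the sham range and IRI replicate 1 was below it. The difference was 0.39 (exact permutation p = 0.0952, adjusted 0.143), and 0.58 without IRI replicate 1 (exact permutation p = 0.00794, adjusted 0.0119). Psmb8 was 2.09%, 1.91%, 1.97%, 1.89% and 2.15% of Psmb5 in sham and 3.11%, 1.73%, 2.23%, 2.29% and 2.93% in IRI. The sham ratios lay close together and the IRI ratios spread below and above them, with a difference of 0.15 (exact permutation p = 0.325, adjusted 0.325), or 0.27 with no pseudocount (exact permutation p = 0.151, adjusted 0.151).

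**Figure D3:**
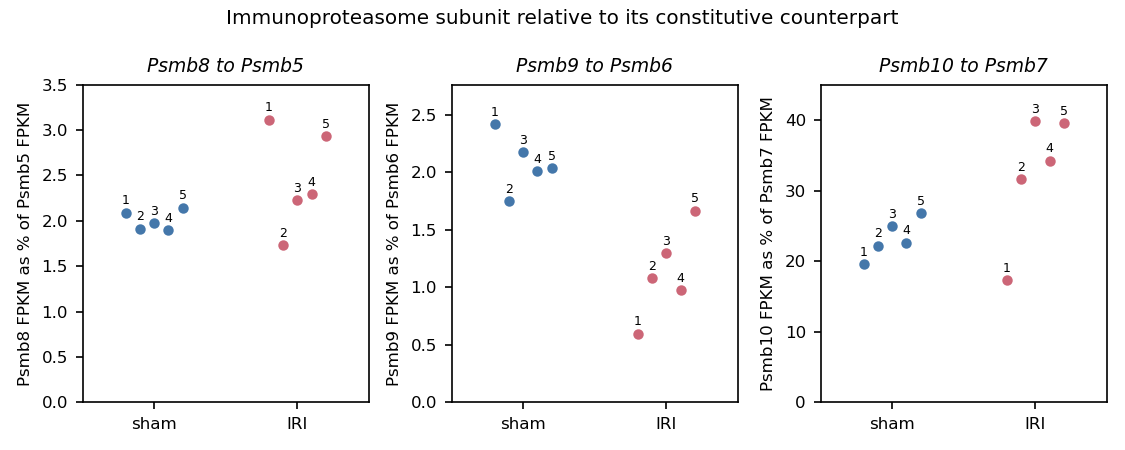
Deposited FPKM of Psmb8, Psmb9 and Psmb10 as a percent of that of Psmb5, Psmb6 and Psmb7 (y axis, from 0, one scale per panel) in the 5 sham and 5 IRI libraries, numbered by replicate. The Psmb9 to Psmb6 ratio is lower in every IRI library than in every sham library, and for Psmb10 to Psmb7 IRI replicate 1 lies apart from the other 4 IRI libraries.

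Psmb9 and Tap1, a subunit of the transporter that carries proteasome peptides to MHC class I, lie head to head on chromosome 17. Their annotated starts are 211 bases apart and their spans overlap by 212 bases. Tap1 is reported here because of this position. It rose from 2.49 ± 0.240 to 3.38 ± 0.650, a log2 change of 0.44 ± 0.14 (edgeR adjusted p = 0.0159). As a description, Psmb9 was 54.8% to 70.5% of Tap1 in sham and 14.9% to 30.3% in IRI, and 40.7% to 53.7% of Psmb8 in sham and 8.62% to 27.2% in IRI.

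Leukocytes are rich in immunoproteasome genes, so their markers are given beside these values. Neutrophil markers summed to 1.20 to 3.56 units in sham and 21.9 to 113 in IRI, with 5 of 5 tested genes higher and Ly6g, Ngp and Camp at 0 in every sham library. Of the tested genes, S100a8, Retnlg, Csf3r and Clec4d reached at most 0.942, 0.331, 0.677 and 0.158 units in sham. They passed the filter through IRI, the group where they are high, which limits the weight of these calls. Macrophage markers summed to 52.6 to 84.6 and 87.4 to 131, with 3 of 8 tested genes higher and 1 lower. Dendritic and MHC class II markers went the other way, from 174 to 253 down to 48.9 to 85.0, with 5 of 5 tested genes lower. The same limit holds for Itgam among the macrophage genes higher (at most 0.263 in sham). It holds too, through sham, for Cd209a among the dendritic genes lower (at most 0.235 in IRI). B and plasma cell markers summed to 13.8 to 20.3 in sham and 4.08 to 5.92 in IRI, with 2 of 2 tested genes lower and Ms4a1 at 0 in every IRI library. T and NK cell markers, none of which passed the filter, summed to 3.68 to 6.48 and 1.51 to 2.55, with Ncr1 at 0 in every IRI library. Of 13 tested interferon response genes, 3 were higher, 2 lower and 8 not called (6 higher and 2 lower under library totals). Both counts with TMM factors were under the shares of all tested genes (34.5% higher, 32.4% lower). The called genes included Rsad2 (-0.62, edgeR adjusted p = 0.000414) and Irf9 (0.60, edgeR adjusted p = 0.00256). The part of these cells and genes in the immunoproteasome values was not tested.

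The 19S cap had the most rises of the complexes. Of its 17 genes 11 rose, 0 fell and 6 were not called, with a median log2 change of 0.29. Across all tested genes, 34.5% rose and 32.4% fell. Groups did not overlap for 9 of the 17, about the share of all tested genes (52.1%). Psmc6, one of the 9, was not called. Without IRI replicate 1, 11 were higher and 0 lower, where 34.0% and 32.4% of all tested genes were. Under library totals 17 of 17 were higher, where 47.4% of all tested genes were. Summed over the 17 genes, the cap stood at 670 to 734 units in sham and 835 to 882 in IRI, without overlap. The 14 constitutive core genes summed to 745 to 955 and 851 to 1062, with overlap. The cap sum was 76.4% to 89.9% of the core sum in sham and 83.0% to 99.0% in IRI, ranges that overlap, so the cap and the core were not told apart by this ratio.

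In the base of the cap, Psmd1 and Psmd2 are the scaffolds that dock ubiquitin receptors, and Psmd4 is a receptor itself. Psmd1 (chr1:85992109-86066873, plus strand) had the largest rise of all members and lay at 18.3, 19.7, 20.4, 18.99 and 16.8 TMM-scaled FPKM in the 5 sham libraries, by replicate number, and 29.96, 27.98, 28.6, 25.6 and 30.2 in the 5 IRI libraries. Every IRI library was above every sham library. The log2 change was 0.60 ± 0.09 (edgeR adjusted p = 6.29e-05), or 1.51 times. Psmd2 rose by 0.48 ± 0.08 (edgeR adjusted p = 0.000324), also without overlap. Psmd4 stood at 0.24 (edgeR adjusted p = 0.0651) and became a call without sham replicate 5 or IRI replicate 1 (0.29 to 0.30).

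Of the 6 ATPases, the ring that unfolds substrates, 2 rose and 4 were not called, near the 34.5% of all tested genes that rose. Psmc1 rose from 74.9 ± 2.38 to 92.5 ± 2.80, a log2 change of 0.30 ± 0.07 (edgeR adjusted p = 0.00216), without overlap. Psmc3 was called at 0.20 (edgeR adjusted p = 0.0493). That call held only without sham replicate 5 or IRI replicate 1 among the 10 left-out libraries, and was lost without any other (0.17 to 0.22, edgeR adjusted p from 0.0665 to 0.116). Psmc2, Psmc4, Psmc5 and Psmc6 lay between 0.01 and 0.12. Psmc5 had the highest level of the cap genes in 7 of 10 libraries and Psmd11 the lowest in 10. Their exonic lengths are 1394 and 6383 bases, on which this order depends.

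In the lid, which holds the enzyme that removes ubiquitin chains, 7 of 8 genes rose, with a median of 0.38, where 34.5% of all tested genes rose. Psmd11 (chr11:80319441-80364074, plus strand), a structural lid subunit, lay at 12.6, 12.7, 11.9, 12.3 and 11.5 TMM-scaled FPKM in the 5 sham libraries, by replicate number, and 21.5, 19.2, 16.5, 17.4 and 17.1 in the 5 IRI libraries. The groups did not overlap, with a log2 change of 0.59 ± 0.09 (edgeR adjusted p = 8.37e-05). Psmd8 rose by 0.55 ± 0.08 (edgeR adjusted p = 9.76e-05), and Psmd14, the deubiquitinase, rose from 24.4 ± 0.816 to 32.6 ± 2.23, a log2 change of 0.42 ± 0.07 (edgeR adjusted p = 0.000279). Psmd7, the partner of Psmd14, rose by 0.39, and Psmd12 by 0.36. All of these were without overlap between groups. Psmd13 (0.29) and Psmd3 (0.24) rose with overlap. The call of Psmd3 was lost without sham replicate 3 or IRI replicate 1, 2 or 5 (0.20 to 0.24, edgeR adjusted p from 0.0548 to 0.0703). Psmd6 stood at -0.06 with TMM factors and 0.19 with library totals, where it was called (edgeR adjusted p = 0.0355). Psmd13 shares 1194 bases with Gm15542 on its own strand, a gene at 18.3 units in sham and 12.2 in IRI. In all, 13 members overlap another gene with a mean of at least 1 unit in a group.

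Among the alternative caps, 3 of 4 PA28 genes rose and PA200 fell, where 34.5% of all tested genes rose and 32.4% fell. Psme1, the PA28 alpha subunit, lay at 23.7, 21.3, 20.6, 24.6 and 27.8 TMM-scaled FPKM in the 5 sham libraries, by replicate number, and 25.4, 29.6, 31.9, 34.1 and 30.9 in the 5 IRI libraries. The groups overlapped, and the log2 change was 0.37 ± 0.10 (edgeR adjusted p = 0.00825). Psme2, the beta subunit that pairs with it, lay at 8.17, 9.88, 7.78, 12.4 and 13.03 TMM-scaled FPKM in the 5 sham libraries, by replicate number, and 10.8, 12.2, 13.2, 12.6 and 14.1 in the 5 IRI libraries. Its groups overlapped too, and at 0.30 ± 0.15 it was not called (edgeR adjusted p = 0.103), but it was without sham replicate 5 (0.42). Psme2b, an intronless near-copy of Psme2, rose by 0.46 ± 0.10 (edgeR adjusted p = 0.00107). The handling of reads shared by the copies was not given in the sources used here, which makes each value uncertain. Psme3, the nuclear PA28 gamma, lay at 33.5, 35.04, 34.9, 28.7 and 25.4 TMM-scaled FPKM in the 5 sham libraries, by replicate number, and 41.2, 36.7, 39.3, 34.4 and 40.9 in the 5 IRI libraries. The groups overlapped and the log2 change was 0.29 ± 0.10 (edgeR adjusted p = 0.0276), a call lost without sham replicate 4 or IRI replicate 1 or 5 (0.26 to 0.27, edgeR adjusted p from 0.0532 to 0.061).

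Psme4, which encodes PA200, lay at 22.7, 24.8, 21.6, 21.96 and 17.4 TMM-scaled FPKM in the 5 sham libraries, by replicate number, and 20.04, 13.6, 18.6, 15.03 and 16.5 in the 5 IRI libraries. Sham replicate 5 was within the IRI range and the other 4 sham libraries were above it, and the log2 change was -0.37 ± 0.13 (edgeR adjusted p = 0.0202). It was -0.12 under library totals (edgeR adjusted p = 0.352) and -0.30 without sham replicate 2 (edgeR adjusted p = 0.0595). Psmf1, which encodes the regulator PI31, lay at 5.37, 5.42, 4.92, 4.91 and 5.09 TMM-scaled FPKM in the 5 sham libraries, by replicate number, and 7.17, 7.43, 5.76, 5.63 and 5.36 in the 5 IRI libraries. In IRI, 4 libraries were above every sham library and replicate 5 was not, and the log2 change was 0.28 ± 0.10 (edgeR adjusted p = 0.0294), a call lost without IRI replicate 1 or 2 (0.22 to 0.23, edgeR adjusted p from 0.0703 to 0.0736). Without IRI replicate 1, 2 of these 6 activator and regulator genes were higher and 1 was lower, where 4 and 1 were with all libraries. Shares of all tested genes were 34.0% higher and 32.4% lower without that library, and 34.5% and 32.4% with all libraries.

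The assembly chaperones gave 0 rises, 2 falls and 5 genes not called with TMM factors, and 3 rises and 0 falls with library totals. For all tested genes the shares were 34.5% and 32.4% with TMM factors, and 47.4% and 23.6% with library totals. The falls were Psmg1 and Psmg2, which pair as the first chaperone of the alpha ring. Psmg1 (chr16:95781133-95792160, minus strand) lay at 19.3, 22.01, 16.97, 21.8 and 24.9 TMM-scaled FPKM in the 5 sham libraries, by replicate number, and 10.4, 14.02, 17.8, 13.5 and 12.8 in the 5 IRI libraries. Sham replicate 3 was within the IRI range and the other 4 sham libraries were above every IRI library. The log2 change was -0.61 ± 0.15 (edgeR adjusted p = 0.00272), and -0.35 under library totals (edgeR adjusted p = 0.0588). Psmg2 lay at 15.9, 16.1, 12.8, 16.6 and 16.99 TMM-scaled FPKM in the 5 sham libraries, by replicate number, and 8.58, 10.6, 13.4, 11.1 and 11.1 in the 5 IRI libraries. Again sham replicate 3 was within the IRI range and the other 4 sham libraries were above it, with a log2 change of -0.52 ± 0.12 (edgeR adjusted p = 0.00286), and -0.25 under library totals (edgeR adjusted p = 0.112).

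Psmg3 and Psmg4, the second chaperone pair of the alpha ring, were not called, at 0.20 ± 0.17 (edgeR adjusted p = 0.319) and 0.13 ± 0.21 (edgeR adjusted p = 0.6). As a description that does not depend on scaling, Psmg1 was 491% to 675% of Psmg3 in sham and 230% to 437% in IRI, and 111% to 157% of Psmg4 in sham and 67.2% to 81.9% in IRI, without overlap in either. The cap chaperones Psmd5, Psmd9 and Psmd10, which assemble the ATPase ring, lay between -0.0025 and 0.12 and were not called. Psmd9 shares 10921 bases with Hpd on the opposite strand, a gene at 17.7 units in sham and 1.22 in IRI. Psmc3ip, the gene outside the proteasome, fell from 1.92 ± 0.296 to 1.16 ± 0.230 units, a log2 change of -0.72 ± 0.20 (edgeR adjusted p = 0.00687). It shares 385 bases with Mlx on the opposite strand, a gene at 30.8 units in sham and 18.4 in IRI. Without strand use being given, reads of this pair cannot be separated, which limits the weight of this fall.

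**Figure D4:**
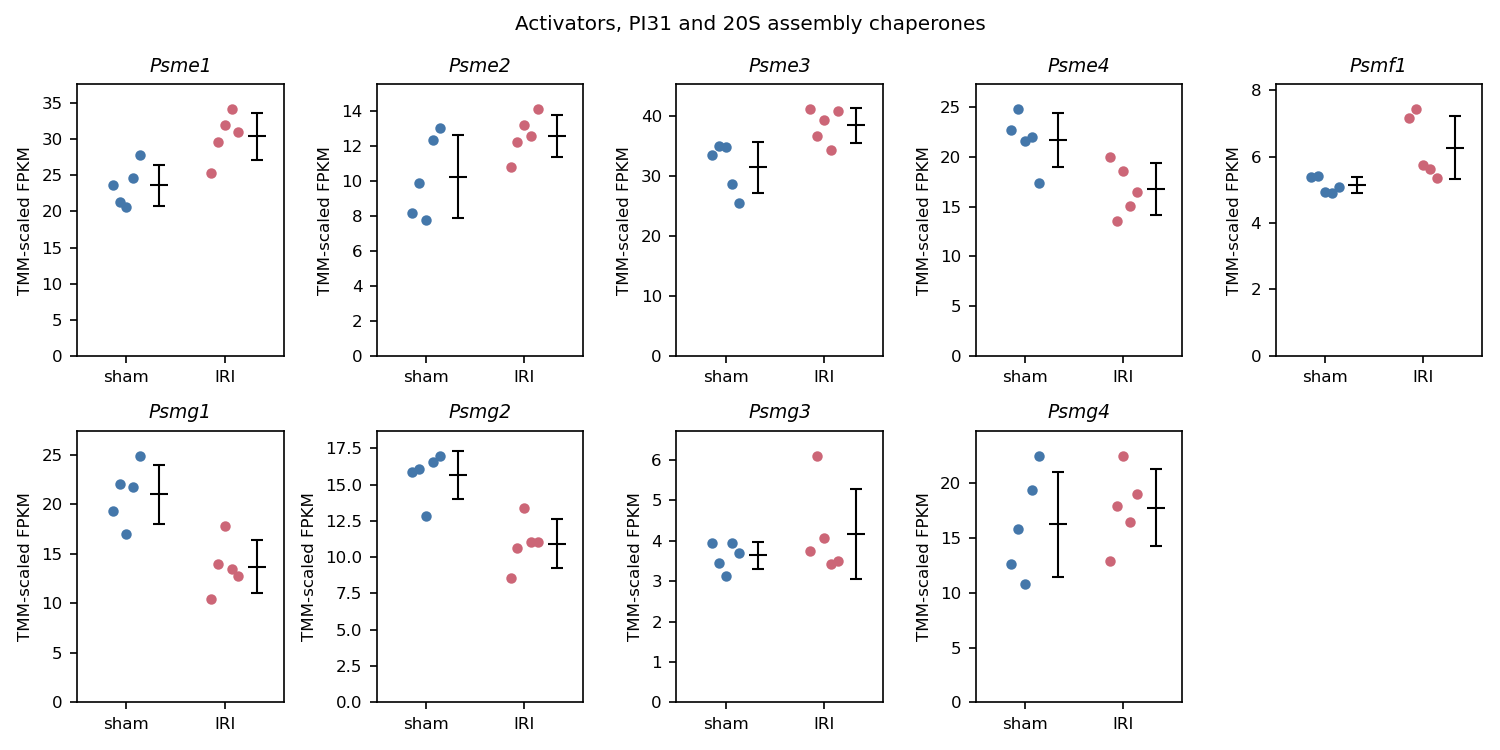
TMM-scaled FPKM (y axis, from 0, one scale per panel) of activator, regulator and core chaperone genes in each sham and IRI library (points), with the mean and SD of each group beside them. Psme1, Psme3 and Psmf1 have higher IRI means, while Psme4, Psmg1 and Psmg2 have lower ones whose calls are lost under library totals.

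Genes that work with the proteasome were counted from lists of the pathway. Of 16 cofactors in the table (ubiquitin receptors, shuttles, deubiquitinases and maturation factors), 6 rose, 2 fell and 8 were not called. The rises were near the share of all tested genes (34.5% higher, 32.4% lower). Under library totals 12 were higher and 1 lower, where 47.4% and 23.6% of all tested genes were. Of the calls with TMM factors, that of Txnl1 was lost in 5 of the 10 fits with a library left out and that of Ubqln1 in 8. Zfand2a, an arsenite-induced proteasome partner, rose from 4.18 ± 0.361 to 19.2 ± 6.54, a log2 change of 2.19 ± 0.21 (edgeR adjusted p = 3e-06). Zfand5, which stimulates the 26S proteasome, rose by 0.82 ± 0.20 (edgeR adjusted p = 0.00284), and Usp14, a deubiquitinase of the cap, by 0.83 ± 0.09 (edgeR adjusted p = 9.54e-06). Adrm1, a ubiquitin receptor of the cap, rose by 0.39. Rad23b, a shuttle factor that brings ubiquitin-bearing proteins to the cap, rose by 0.41 ± 0.09 (edgeR adjusted p = 0.00119). Pomp, the maturation factor of the core (0.04), and Sem1, the smallest lid subunit (-0.01), were not called.

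Of the 8 tested genes of the NRF pathway, 4 rose, 2 fell and 2 were not called, where 34.5% of all tested genes rose and 32.4% fell. Nfe2l1, which encodes NRF1, rose from 33.4 ± 6.55 to 43.6 ± 4.93, a log2 change of 0.38 ± 0.14 (edgeR adjusted p = 0.0244). Its call was lost without sham replicate 2 or IRI replicate 4 or 5 (0.34 to 0.35, edgeR adjusted p from 0.05 to 0.0595). Ngly1 and Ddi2, the enzymes that remove sugars from NRF1 and cut it into its active form, fell, with log2 changes of -0.51 ± 0.11 (edgeR adjusted p = 0.00182) and -0.65 ± 0.11 (edgeR adjusted p = 0.00028), and stood at -0.26 and -0.41 under library totals. Nfe2l2, which encodes NRF2, rose from 22.8 ± 2.67 to 67.3 ± 14.5, a log2 change of 1.56 ± 0.15 (edgeR adjusted p = 2.55e-06). Its small Maf partners Maff (3.88) and Mafk (1.23) rose, and Mafg (0.04) was not called.

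Among 11 genes of p97 and ubiquitin supply, 3 rose, 0 fell and 8 were not called, and 6 were higher under library totals. The rises were no more frequent than among all tested genes (34.5%, or 47.4% under library totals). Ufd1 and Nploc4, the cofactors with which p97 extracts ubiquitin-bearing proteins, rose by 0.66 ± 0.09 (edgeR adjusted p = 3.06e-05) and 0.47 ± 0.10 (edgeR adjusted p = 0.00129). Rps27a, a ubiquitin gene with many processed copies in the genome and so an uncertain count, rose by 0.87 ± 0.19 (edgeR adjusted p = 0.00168). Of 10 tested genes of MHC class I processing, downstream of the proteasome, 6 rose, 2 fell and 2 were not called. Among all tested genes 34.5% rose and 32.4% fell. H2-D1, a class I heavy chain, rose by 0.64 ± 0.10 (edgeR adjusted p = 0.000113). Calr and Pdia3, general chaperones of the endoplasmic reticulum that also serve the class I loading complex, fell: Calr to 128 ± 21.1 from 326 ± 6.86, a log2 change of -1.35 ± 0.12 (edgeR adjusted p = 1.67e-06), and Pdia3 to 116 ± 6.34 from 191 ± 2.72, a log2 change of -0.72 ± 0.08 (edgeR adjusted p = 1.16e-05).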

How the data were processed

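Poly(A) RNA of 10 mouse kidney libraries was sequenced. Raw gene counts and FPKM were deposited by the authors in 1 table. Per the submitters' processing notes, cutadapt 1.9.1, HISAT2 2.0.1, HTSeq 0.6.1 and GRCm39 were used, with no roles or settings given. Each deposited FPKM equalled count over length and library total within 0.005 units or 0.1%. Symbols were matched by Ensembl identifier (52083 of 55359 genes).

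The members and lists were chosen with earlier results of these data known. Genes with at least 1 deposited FPKM in 5 or more libraries (13324, holding 98.9% to 99.3% of counts) entered edgeR 4.0.16 under R 4.3.3, with its quasi-likelihood test, TMM factors (0.895 to 0.941 in sham, 0.998 to 1.141 in IRI) and Benjamini-Hochberg adjustment at 0.05. The script was tested on simulated data. Standard errors are the log2 change over the square root of F. Printed levels are FPKM recomputed with TMM-scaled library sizes. Ratios within libraries used deposited FPKM plus a pseudocount of 1 and exact permutation. Every member could be named. Values in every library are given for the catalytic and immunoproteasome genes, for Psme1, Psme2, Psme3, Psme4 and Psmf1, and for the 2 members that rose and the 2 that fell most among called members with a mean of at least 5 FPKM. Up to 3 called genes of largest change were named per list, and any gene of the cofactor and NRF lists; some genes so chosen are not reported here. Alternatives were library totals, RLE factors, DESeq2 1.42.0, limma 3.58.1 on log2(FPKM + 1) and log2(FPKM + 0.1), other filters, a replicate block, a stricter threshold and each library left out.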

Additional observations from a re-analysis of the deposited data

Results flagged for a closer look

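Each member's level in each group, and each of the 3 immunoproteasome ratios, was searched for a library far from the other 4 by Dixon's test, in 102 groups. Chance flags about 1 group in 20, and 4 were found. Psmc1, the cap ATPase that rose, lay at 70.6 TMM-scaled FPKM in sham replicate 5 and at 75.4 to 76.4 in the other sham libraries. Psmd9, a cap chaperone, lay at 5.13 in IRI replicate 2 and at 4.28 to 4.53 in the other IRI libraries. Psmg2, a core chaperone that fell, lay at 12.8 in sham replicate 3 and at 15.9 to 17.0 in the other sham libraries. Psmg3, its fellow core chaperone, lay at 6.11 in IRI replicate 2 and at 3.42 to 4.08 in the other IRI libraries.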

How the results depend on the processing

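Members higher in IRI, 21 in the reported fit, numbered 39 with library totals, 37 with limma on log2(FPKM + 1), 37 with limma on log2(FPKM + 0.1) and 13 at an adjusted p under 0.01. Members lower, 6 in the reported fit, numbered 1, 2, 2 and 3 under the same settings. All genes shifted too. Of 13324 tested, 4599 were higher in the reported fit, 6322 with library totals and 6296 and 6281 with limma (+ 1 and + 0.1). All genes lower numbered 4320, 3139, 3202 and 3194 in the same order. Both counts of all genes were also smaller at an adjusted p under 0.01. With each library left out, members higher ranged from 17 to 25 and lower from 4 to 7, and all genes higher from 4352 to 4682 and lower from 4044 to 4410. Over the same left-out libraries the log2 ratio differences ranged from 0.05 to 0.25 for Psmb8 to Psmb5, from -0.68 to -0.57 for Psmb9 to Psmb6 and from 0.31 to 0.58 for Psmb10 to Psmb7, the last value, without IRI replicate 1, passing the threshold. Sham and IRI libraries of the same number did not deviate together (correlations from -0.25 to 0.06), and 0 of 10 libraries correlated best with their own number. With the replicate block, 15 members were higher and 5 lower, all genes numbered 4221 and 4097, and the Psmb9 to Psmb6 difference stayed at -0.61 with an exact sign-flip p of 0.0625, the smallest 5 pairs can give, and an adjusted p of 0.188. Changes of sign came in log2 values of at most 0.26 in size, which is above some called rises of the reported fit (Psmc3, 0.20). Psma4 was 0.0128 with library totals and 0.0095 and 0.0096 with limma (+ 1 and + 0.1), Psmb7 0.0517, 0.0481 and 0.0495, Psmd6 0.19, 0.18 and 0.19 (called in all 3), and Psmd5 0.26, 0.23 and 0.25, with 0.0204 without a filter, 0.0186 with filterByExpr and 0.0031 with the replicate block. With RLE factors and DESeq2, Psmb1 was -0.0165 and -0.0165, Psmb6 -0.0004 and -0.0002, and Psmc2 -0.012 and -0.0116. With a library left out, values ranged from -0.0282 to 0.059 for Psmb1, -0.0064 to 0.16 for Psmb5, -0.0203 to 0.0931 for Psmb6, -0.0213 to 0.0534 for Psmc2 and -0.0629 to 0.0852 for Psmd5. None of these members was called in the reported fit except Psmb7. The cause was not tested, beyond the shift of the median of all genes that library totals bring. Of the 48 tested members, 44 kept direction and side of the threshold with DESeq2, 41 with RLE factors, 46 with filterByExpr, 43 with no filter and 40 with the replicate block, against 23 with library totals and 26 with either limma fit. Counts limit the precision of Psmb9 (24 to 101 per library) and Psmc3ip (29 to 62).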
